A study of Mus musculus with 2 samples.

Results

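The genes of the nuclear envelope described here comprise 36 mouse genes: 23 nucleoporins, 3 lamins, 6 proteins of the inner nuclear membrane or its chromatin tether, and 4 carriers of nuclear transport. They were chosen by name, with earlier results of these arrays known, and were read by the non-control probes annotated to their transcripts. All 36 of 36 had a probe, among 18430 named genes on the array, and all 61 of their probes were well above background on both arrays, so no filter on dim signals removed any of them. RNA came from Menin KO and Menin WT CD4 T cells, with 1 array for each genotype. Menin, encoded by Men1, is a partner of MLL histone methyltransferases. The cells were isolated naive from spleen (strain C57BL/6J, female) and stimulated for 2 days through the T cell receptor beta chain (antibody at 3 µg/ml) and CD28 (1 µg/ml) with IL-2 (2.5 ng/ml), then kept in IL-2 for 3 further days. The labels name the genotypes but give neither the allele, nor a Cre driver, nor the age or number of mice, and both groups share strain, sex and culture. With 1 array a group, no difference was tested, and every value describes these 2 arrays.

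The nuclear pore is a ring built from many copies of each nucleoporin, set where the inner and outer nuclear membranes fuse. A Y-shaped complex coats its outer faces, an inner ring lines the membrane, nucleoporins with phenylalanine-glycine repeats fill the channel, and filaments reach into cytoplasm and nucleus. Importins and exportins carry cargo through it, with direction set by the small GTPase Ran. Beneath the inner membrane lies the lamina, a mesh of A-type lamins (from Lmna) and B-type lamins (from Lmnb1 and Lmnb2), to which membrane proteins tie chromatin and, through the SUN proteins, the cytoskeleton. The envelope is taken apart and rebuilt at each mitosis in animal cells. In T cells, A-type lamins are scarce at rest and are induced by activation, whereas B-type lamins are present throughout.

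Lmna stood apart, at least 10-fold higher in Menin KO by each of its probes, while most of the other genes were modestly lower in KO. Of the 36, 29 were below 0 on the log2 scale (80.6%, where 50.5% of all 13510 named genes were below 0) and 7 above 0. Their median log2 difference was -0.37, against -0.01 for all named genes. Only Lmna was at least 2-fold higher, 1 of 36 where 10.8% of all named genes were that much higher, and 0 were at least 2-fold lower, where 5.14% of all named genes were. At 1.5-fold, 6 of 36 were lower, namely Tmpo, Sun2, Nup107, Kpna2, Lmnb1 and Nup37 (16.7%, background 12.7%). As many as 4 were higher at 1.5-fold, namely Lmna, Ranbp2, Nup210 and Nup93 (11.1%, background 17.3%). Since these genes were proposed from the same comparison, nothing is read from these shares.

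Errors can be given only for the measurement. The scanner software gives its own error estimate for each spot. Taken on both arrays together, it came to 0.20 to 0.21 on the log2 scale for the chosen probes of the 36 genes. It was nearly the same for dim and bright chosen probes, so it is not a separate measure of each gene's scatter. A limit of 2 times this error is therefore nearly the same cut on size for every gene. By that cut, 20 of the 36 differences exceeded 2 times their error, 15 of them lower in KO and 5 higher. The share of all named genes passing this cut was not computed, and their 25th and 75th percentiles lay at -0.30 and 0.35. Nothing is therefore read from this count or from later ones by the same cut. Spots of the same probe scattered with a pooled SD of 0.0541 (110 probes with signal of 100 or more and at least 5 spots). Probes of the same gene scattered with a pooled SD of 0.27 over 4414 genes, and of 0.171 over the 17 genes here that had several probes. The other 19 genes, among them Nup93, Nup210, Nup107, Nup37 and Lmnb1, had 1 probe each and so no second reading. None of these errors holds differences between mice or cultures.

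To let the start regions be read beside the values, the 250 bases upstream of each RefSeq transcription start (build GRCm38.p6, 5′ to 3′ on the gene's strand) are printed for the 2 highest and the 3 lowest of the 36 genes. The windows of the 2 Lmna starts are chr3:88503353-88503602 and chr3:88493313-88493562, both on the minus strand. The Ranbp2 window is chr10:58446602-58446851 on the plus strand. The windows of the 2 Tmpo starts are chr10:91171620-91171869 and chr10:91170551-91170800, that of Sun2 is chr15:79742537-79742786 and that of Nup107 chr10:117792706-117792955, all on the minus strand. Capitals mark 4 motifs searched on both strands: the AP-1 element TGANTCA, related to the sites that Bach factors bind, the E2F site TTCCCGC, the cell cycle homology region TTTGAA, and the CCAAT box CCAAT. No marked motifs overlap in the printed sequences.
Lmna, upstream start: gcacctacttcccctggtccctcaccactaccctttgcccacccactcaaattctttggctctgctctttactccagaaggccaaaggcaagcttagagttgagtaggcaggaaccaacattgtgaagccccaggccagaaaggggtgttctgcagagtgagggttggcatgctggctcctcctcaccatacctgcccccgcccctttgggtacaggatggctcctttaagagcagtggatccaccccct
Lmna, downstream start: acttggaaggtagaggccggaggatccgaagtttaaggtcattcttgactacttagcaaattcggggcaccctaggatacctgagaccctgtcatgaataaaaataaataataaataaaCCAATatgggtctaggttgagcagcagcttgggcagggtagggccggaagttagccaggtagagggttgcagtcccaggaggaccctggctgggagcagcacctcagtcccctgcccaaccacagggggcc
Ranbp2: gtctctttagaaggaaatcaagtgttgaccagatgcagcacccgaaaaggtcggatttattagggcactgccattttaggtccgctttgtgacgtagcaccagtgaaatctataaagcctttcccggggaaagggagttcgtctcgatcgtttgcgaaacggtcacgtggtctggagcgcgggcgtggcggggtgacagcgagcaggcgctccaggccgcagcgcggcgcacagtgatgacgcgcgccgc
Tmpo, upstream start: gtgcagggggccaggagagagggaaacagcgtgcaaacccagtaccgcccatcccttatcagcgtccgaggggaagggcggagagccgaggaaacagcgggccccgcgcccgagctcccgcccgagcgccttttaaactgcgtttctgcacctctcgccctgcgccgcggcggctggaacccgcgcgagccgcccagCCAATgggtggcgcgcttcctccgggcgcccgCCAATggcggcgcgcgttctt
Tmpo, downstream start: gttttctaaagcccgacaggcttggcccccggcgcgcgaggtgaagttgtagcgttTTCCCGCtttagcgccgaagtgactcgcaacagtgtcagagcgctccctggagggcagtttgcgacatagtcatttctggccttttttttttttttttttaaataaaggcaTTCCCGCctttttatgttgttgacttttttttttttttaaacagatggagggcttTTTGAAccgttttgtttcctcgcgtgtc
Sun2: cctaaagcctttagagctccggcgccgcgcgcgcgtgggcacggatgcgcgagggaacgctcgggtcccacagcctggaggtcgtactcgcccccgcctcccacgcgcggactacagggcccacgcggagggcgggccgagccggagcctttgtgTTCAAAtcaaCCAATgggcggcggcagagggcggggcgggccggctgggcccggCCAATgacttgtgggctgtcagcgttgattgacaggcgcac
Nup107: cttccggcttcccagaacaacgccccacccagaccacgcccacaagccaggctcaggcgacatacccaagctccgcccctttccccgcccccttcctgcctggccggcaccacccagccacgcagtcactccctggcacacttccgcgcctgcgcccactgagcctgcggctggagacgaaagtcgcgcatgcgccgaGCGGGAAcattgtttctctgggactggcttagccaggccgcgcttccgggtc

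In these windows the Tmpo starts held CCAAT boxes at the upstream start, and E2F sites with a cell cycle homology region at the downstream start. Sun2 held a cell cycle homology region and CCAAT boxes, Nup107 an E2F site, and Lmna a CCAAT box at 1 of its starts. Ranbp2 held none of the 4 motifs. Of the 36 genes, 32 had a promoter in the table. The CCAAT box was found for 19 of the 32 (59.4%, against 37.5% of 27025 genes with a promoter), the cell cycle homology region for 9 (28.1% against 18.3%), the E2F site for 4 (12.5% against 4.38%) and the AP-1 element for 1, Lbr (3.12% against 7.82%). In the same order, the motifs occurred in 33.8%, 16.0%, 3.82% and 6.75% of all 32851 windows of 250 bases. These promoters were also richer in G and C, with a median of 64.2% over 40 windows against 52.4% over all, and the shares were not matched for base composition. The E2F genes were Tmpo, Nup107 and Banf1, all below 0, and Nup210, which was higher in KO. Genes above 0 with a CCAAT box were Emd, Nup50, Nup93 and Lmna. The 4 motifs were picked after a wider set had been tried on these promoters, so nothing is read from these shares. A match is a run of letters, not a bound site.

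Among the lamins, Lmna and the B-type genes went opposite ways. Lmna (NM_019390), which encodes lamins A and C, was read by 3 probes, with signals of 21343, 11737 and 7291 in Menin KO, against 1963, 938 and 581 in Menin WT. Each probe was brighter in KO, and the probes gave 10.8-fold, 12.4-fold and 12.4-fold higher signals (log2 differences of 3.43, 3.63 and 3.64). Of the 12475 named genes measured on both arrays, 98 had a larger difference than the chosen Lmna probe. Lmnb1, the B-type lamin whose protein falls in many senescent cells, had a signal of 7462 in KO against 11855 in WT, 1.60-fold lower. Lmnb2, the other B-type gene, had 453 in KO against 523 in WT by its brighter probe (log2 difference -0.22) and 197 in KO against 320 in WT by its dimmer probe (-0.71). Both Lmnb2 probes were lower in KO, yet they differed from each other by more than the pooled SD between probes. The ratio of Lmna to Lmnb1 signal was 17.3-fold higher in KO than in WT, and that of Lmna to Lmnb2 12.6-fold.

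Bulk RNA cannot tell a gene's level per cell from the share of cells that express it, and other cells were looked for by their markers. All 8 listed markers of CD4 T cells were well above background on both arrays, though only Cd4 among them is not shared with CD8 T cells. Of the 8, 1 was at least 2-fold lower and none higher, with a median log2 difference of -0.22. Their summed signal was 149884 in KO against 197354 in WT. Such sums mix probes whose heights cannot be compared, and they lean on the brightest. The gene at least 2-fold lower was Cd5, a restraining receptor, with 16739 in KO against 55133 in WT (3.32-fold). Cd4 was 1.60-fold lower, with a signal of 279 in KO against 443 in WT. The other 6, among them Cd28 (-0.27) and the CD3 chain genes, had log2 differences of -0.27 to 0.37. Cd8a, the only listed CD8 T cell marker with a probe, was 10.2-fold higher, with 3213 in KO against 312 in WT. The summed signal of 7 measured macrophage and monocyte markers was 689 in KO against 369 in WT. In that list 3 markers passed 2-fold on the higher side and 0 on the lower, while at 1.5-fold 3 were higher and 2 lower. Of the 7, 4 lay above 0 and 3 below, with a median log2 difference of 0.0. Cd14 had 256 in KO against 35 in WT (7.25-fold higher). Fcgr3 (134 in KO, 13.5 in WT) and Adgre1 (71.8 in KO, 13.0 in WT) were at background in WT, so they were at least 9.50-fold and at least 5.08-fold higher. Lyz2 had a signal of 2.20 in KO against 19.5 in WT, at background in KO, so it was at least 1.90-fold lower. Natural killer markers (3 of 7 at least 2-fold higher, 1 lower) summed to 9588 in KO against 3394 in WT. Their brightest on the KO array was Fcer1g (5087 in KO, 669 in WT). The other 2-fold higher ones were Klrb1c (700 in KO, 129 in WT) and Tyrobp (1229 in KO, 253 in WT). The lower marker was Eomes (452 in KO, 1031 in WT). B cell markers (2 of 5 higher, Cd22 and Ms4a1) summed to 1686 in KO against 931 in WT. Mast cell and basophil markers (3 of 5 higher) summed to 648 in KO against 103 in WT. The 3 were Cpa3 (367 in KO, 28.2 in WT, 12.9-fold), Mcpt8 (162 in KO, 13.7 in WT) and Fcer1a (75.9 in KO, 32.3 in WT). Mcpt8 was at background in WT, so it was at least 11.4-fold higher. Beside these marker counts, 10.8% of all named genes were at least 2-fold higher and 5.14% at least 2-fold lower. The B cell factor gene Pax5 and the mast cell receptor gene Ms4a2 were not well above background on either array. Whether other cells were present, and what part they may have in the Lmna difference, was not tested.

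**Figure D1:**
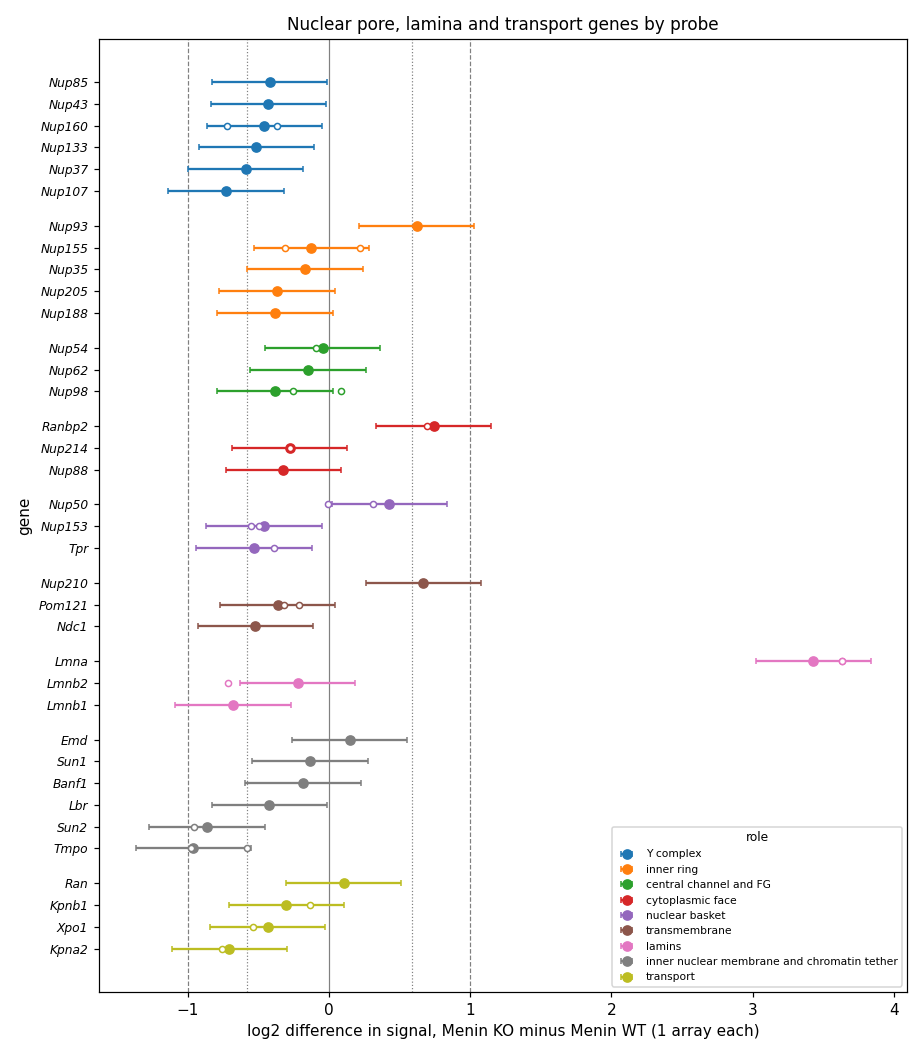
Log2 difference in signal (Menin KO minus Menin WT, 1 array each) for the 36 genes, grouped and coloured by role. Filled points are the chosen probe with bars of 2 times the scanner's error estimate, open points the gene's other probes, dotted lines 1.5-fold and dashed lines 2-fold. Lmna lies at 3.43, all 6 genes grouped as Y complex lie between -0.73 and -0.42, and no gene passes 2-fold on the lower side.

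Genes for proteins that anchor the lamina and chromatin to the inner membrane were lower for the most part, led by Tmpo and Sun2. Tmpo encodes the lamina-associated polypeptide 2 isoforms, which bind B-type lamins, A-type lamins or chromatin depending on the isoform. Its dimmest probe is annotated to a different transcript from its other 2 probes. The 3 probes had signals of 10976, 3152 and 55.8 in KO, against 21186, 6160 and 82.9 in WT. All were lower in KO, by log2 differences of -0.96, -0.98 and -0.58, the larger 2 just inside the 2-fold limit. With arrays scaled on their medians the brightest probe passed that limit, at -1.04. Sun2, a SUN-domain protein that couples the lamina to the cytoskeleton through nesprins, had 20294 and 2318 in KO, against 36622 and 4469 in WT (log2 differences -0.86 and -0.96). Its relative Sun1 was nearly level, with 6949 in KO and 7562 in WT (-0.13), within its scanner error. Lbr, the lamin B receptor, which is also a sterol reductase, had 12757 in KO against 16952 in WT (-0.42). The difference of Lbr was just beyond 2 times its error, while those of Banf1 and Emd were within it. Banf1, a small protein that bridges DNA and the envelope, had 10160 in KO and 11444 in WT (-0.18), and Emd, encoding emerin, had 24727 in KO and 22125 in WT (0.15).

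The Y complex, the outer coat of the pore scaffold, was lower in all 6 genes grouped with it here. Nup107 had a signal of 466 in KO against 765 in WT (1.66-fold lower), and Nup37 had 2820 in KO against 4208 in WT (1.51-fold lower). Nup133 had 6744 in KO and 9549 in WT (log2 difference -0.51). Nup160, read by 3 probes with differences of -0.72 to -0.37, had 824 in KO against 1123 in WT by its brightest probe. Nup43 had 1091 in KO and 1458 in WT (-0.43), and Nup85 had 38104 in KO and 50556 in WT (-0.42). All 6 differences were beyond 2 times the scanner error, and their median was -0.49. Another 3 subunits of this complex on the array were not uniform. Seh1l was 1.75-fold lower (its other probe gave -0.28), and Ahctf1, encoding ELYS, had -0.15. Sec13, which also serves in the COPII coat of secretory vesicles, had 0.23. With them 8 of 9 lay below 0. Nup98, whose precursor also gives the Y complex protein Nup96, was grouped with the channel genes and left out of these counts. Its probes ranged from -0.38 to 0.08.

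**Figure D2:**
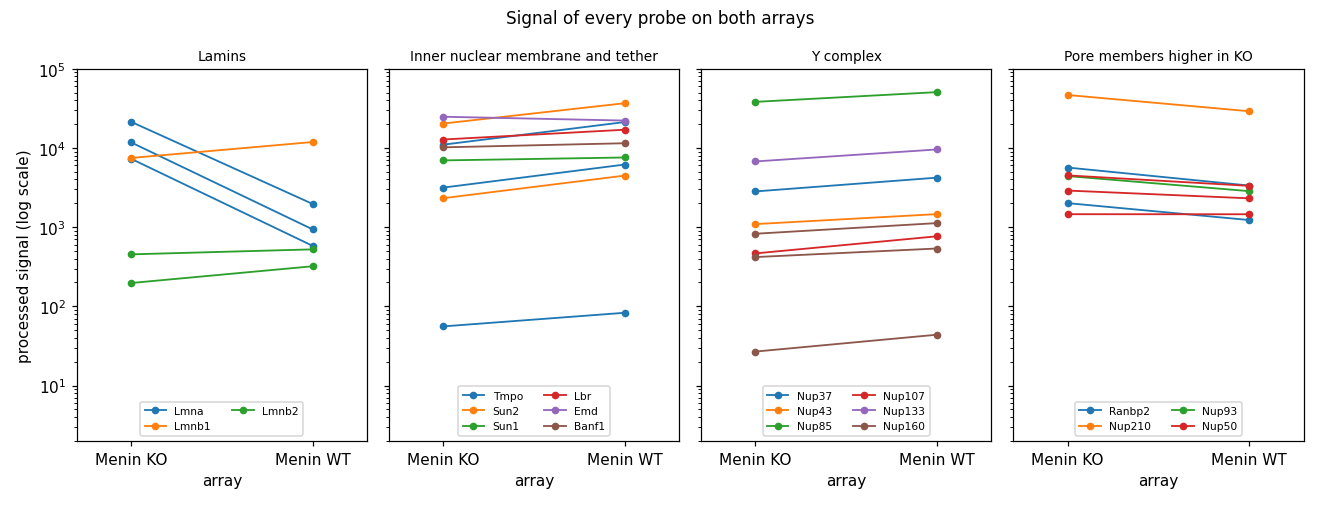
Processed signal of every probe of 19 genes on the Menin KO array (left of each panel) and the Menin WT array (right), on a log axis, with a line joining the 2 values of a probe. The 3 Lmna lines fall steeply towards WT, whereas lines of the B-type lamins, Tmpo, Sun2 and the Y complex climb towards WT; heights of different probes cannot be compared.

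The inner ring, which binds the curved membrane and holds the channel proteins, split. Nup93, the linker that recruits the channel nucleoporins, was higher by 1 spot of its 1 probe, with 4409 in KO against 2844 in WT (1.54-fold). The large scaffold genes Nup188 and Nup205 were lower, Nup188 with 434 in KO against 561 in WT (log2 difference -0.38) and Nup205 with 330 in KO against 423 in WT (-0.37), both within 2 times the scanner error. The protein of Nup93 binds those of Nup188 and Nup205 in alternative complexes. Nup35, a membrane-binding subunit, had 3133 in KO and 3495 in WT (-0.17). Nup155 had -0.13 by its brightest probe, but its 3 probes ranged from -0.31 to 0.22, so it has no settled direction.

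Channel and cytoplasmic genes lay between -0.38 and -0.04 by their chosen probes, with Ranbp2 higher at 0.74. Nup62 (-0.15) and Nup54 (-0.04), partners in the central channel, were within the scanner error, and the sign of Nup54 turned after loess scaling (0.0013). Nup98, whose precursor also gives the Y complex protein Nup96, had -0.38 by its brightest probe, with 190 in KO against 245 in WT, and its probes ranged from -0.38 to 0.08. Ranbp2, the giant protein of the cytoplasmic filaments and a SUMO ligase, had 5648 and 2006 in KO, against 3345 and 1228 in WT. Its probes agree at 1.67-fold and 1.62-fold higher. The other cytoplasmic genes, Nup88 (12650 in KO, 15708 in WT, -0.33) and Nup214 (6880 in KO, 8266 in WT, -0.28), encode partners that dock the exportin Xpo1. Both were lower by less than 2 times the scanner error.

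The basket and the membrane-spanning genes also split by gene. Tpr, the coiled-coil protein that builds the nuclear basket, had 8148 and 3216 in KO, against 11680 and 4186 in WT (log2 differences -0.53 and -0.39). Nup153, which anchors the basket, was lower by all 3 of its probes (-0.56 to -0.46). Nup50, a mobile basket protein that helps release importin alpha cargo, was higher by its brightest probe, with 4495 in KO against 3316 in WT (0.43). That probe was printed 10 times, and its difference varied with an SD of 0.015 over 9 usable spots, but the other Nup50 probes gave 0.31 and -0.01. The gap between these probes is far wider than the scatter between spots. Of the membrane-spanning nucleoporins, Nup210 was higher by 1 spot of its 1 probe, with 46526 in KO against 29016 in WT (1.59-fold). In mice Nup210 varies between cell types and is required by T cells. Ndc1 had 833 in KO and 1187 in WT (-0.52), and Pom121 was lower by all 3 probes (-0.37 to -0.21), its brightest probe within 2 times the error.

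Of the transport genes, Kpna2 was lowest. Kpna2, an importin alpha that reads nuclear localisation signals and is abundant in dividing cells, had 24296 and 6293 in KO, against 39317 and 10551 in WT (1.63-fold and 1.69-fold lower). Xpo1, the exportin for leucine-rich export signals, had 3218 in KO and 4307 in WT (log2 difference -0.43), beyond 2 times its error. Kpnb1, the importin beta that carries importin alpha and its cargo, had 3162 in KO and 3868 in WT (-0.30). Ran itself had 139805 in KO and 128983 in WT (0.10). The differences of Kpnb1 and Ran were within 2 times the scanner error.

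Other genes of these systems, taken from lists of pathway members, had list medians from -0.31 (Ran cycle) to -0.01 (importins and exportins). The median of the 36 genes was -0.37. Of 21 other importins and exportins none was at least 2-fold higher and 1 was lower. Among all named genes 10.8% were at least 2-fold higher and 5.14% at least 2-fold lower. The list median was -0.01, as was that of all named genes. The lower gene was Snupn, the import adaptor for spliceosomal particles (2281 in KO, 4556 in WT, 2.02-fold lower), followed by Ipo9 (132 in KO, 208 in WT, -0.67), while Kpna1 had -0.52. In the Ran cycle list 1 of 7 measured genes was at least 2-fold higher, Rangrf, encoding a Ran-binding factor that can free Ran of nucleotide (11267 in KO, 4554 in WT, 2.45-fold). Its other genes with the largest differences were Ranbp6 (-0.45) and Ranbp3 (-0.43), and the list median was -0.31. Of 9 measured other nucleoporins none reached 2-fold, and the median was -0.15. Besides Seh1l, the largest were Nup210l (-0.39, on a dim signal of 15.1 in KO and 19.5 in WT) and Aaas (-0.37).

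Of 18 measured genes for other envelope proteins and lamin processing, 1 was at least 2-fold lower and none higher. Among all named genes 5.14% were that much lower and 10.8% higher. The list median was -0.09. Syne2, encoding nesprin-2, an outer-membrane partner of the SUN proteins, had 762 in KO against 1981 in WT by its brightest probe (2.62-fold lower), and its 5 probes well above background ranged from -1.39 to -0.79. Syne1, encoding nesprin-1, another large partner of the SUN proteins, had 498 in KO against 454 in WT by its brightest probe (0.12). Its other 2 probes well above background gave 0.09 and 2.65, the larger on signals of 121 in KO and 19.0 in WT. Nrm, encoding the inner membrane protein nurim, was 1.78-fold lower, and Syne3, encoding nesprin-3, had 0.50. Zmpste24, the protease that matures prelamin A, had 1676 in KO and 1765 in WT (-0.09).

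Lists of dividing-cell genes had lower medians than the envelope genes. All 25 mitosis genes were below 0 with a median of -1.05, led by the kinesin gene Kif11 (-1.48) and the cyclin gene Ccna2 (-1.46). Of them 24 were at least 1.5-fold lower, where 12.7% of all named genes were. DNA replication genes had a median of -0.74, led by Pole (-1.01) and Pola1 (-0.99), with 18 of 25 at least 1.5-fold lower (background 12.7%). The part that a smaller share of dividing cells may have in the lower envelope genes was not tested.

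**Figure D3:**
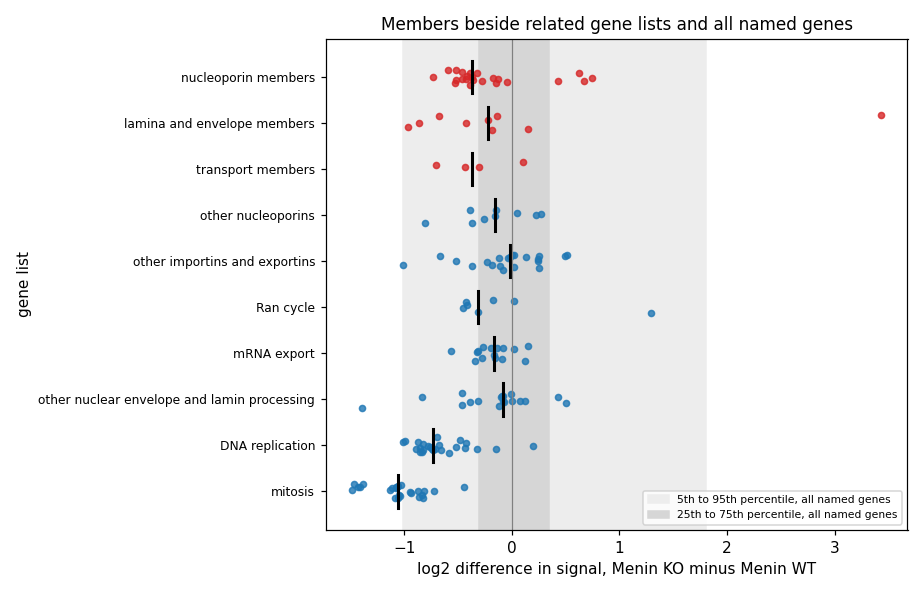
Log2 difference (Menin KO minus Menin WT) of each measured gene, in rows for the nucleoporin, lamina and transport genes described here (red) and for related lists (blue), with black bars at the medians. Grey bands span the middle of all 13510 named genes (25th to 75th percentile, -0.30 to 0.35, and 5th to 95th, -1.01 to 1.81); the nucleoporin median of -0.37 lies below the inner band and the mitosis median of -1.05 below the outer one.

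Men1, read by 1 probe, had a signal of 459 in KO against 1081 in WT (2.38-fold lower). Of all named genes, 5.14% were at least 2-fold lower. Whether the Men1 probe lies in the deleted part is not known here, so its value cannot check the genotype labels. The arrays shared a slide and a scan. The share of non-control spots well above background was 63.5% for KO and 59.5% for WT.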

How the data were processed

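Total RNA (500 ng) was amplified and labelled with Cy3, per the labels' protocols, and hybridised to 1-colour Agilent mouse arrays, 1 per genotype. The intensity of each spot is the processed signal deposited by the authors, which per the file headers came from version 10.7.3.1 of Agilent Feature Extraction, given as 10.7 by the submitters' processing notes, with probe annotation on mm9. It is background-subtracted and linear, with no scaling between arrays. The 0 or 1 flags on background and outliers are other deposited columns, per the file headers. The authors' deposited log2 values differed from the log2 processed signal by 1 fixed shift on each array (99.7% of probes matched within 0.01), with column medians of -3.90 for KO and -3.97 for WT.

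Non-control spots with outlier flags were left out (103 on KO, 115 on WT of 43379), and none was saturated. Signals were divided by the 75th percentile of their array (650.3 on KO, 644.5 on WT), put on the log2 scale and averaged over a probe's spots. Transcript accessions were named through a RefSeq table of GRCm38.p6, which named 27043 of 41164 probes. A gene took its brightest probe, after probes at background on both arrays were dropped. A gene at background on 1 array only has a bound, set against its own dim value or, where higher, the array's detection limit. Of 13510 genes with a difference or bound, 12475 were measured on both arrays. The size rules were 2-fold and 1.5-fold. The 36 genes and all lists were chosen with earlier results of these data known. The text names all 36 genes, Men1, the 3 genes of each related pore, transport or envelope list with the largest difference, any of them 2-fold apart, the 2 largest of the division lists, and markers. Ahctf1, Sec13, Syne1, Zmpste24, Fcer1g, Eomes, the other Eny2 probe and the T cell, macrophage and monocyte marker values were picked after they were seen. The 4 promoter motifs were picked after a wider set had been tried on these promoters. The procedure was tested on simulated data. Python 3.11.15, R 4.3.3 and limma 3.58.1 were used.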

Additional observations from a re-analysis of the deposited data

How the results depend on the processing

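The alternatives were normexp background correction (offset 50, with 3 WT spots of aberrant local background given the array's median), quantile, median and loess scaling, the authors' values, the mean over probes, 2 other filters on dim probes, and kept outlier flags. Of 324 values (36 genes under 9 alternatives) 320 moved by less than the pooled spot SD of 0.132 on the log2 scale, which includes dim probes, and the other 4 moved by more under the mean over probes, for Lmna (3.57), Lmnb2 (-0.47), Nup50 (0.24) and Nup98 (-0.18). Against the SD of 0.0541 for signals of 100 or more, 65 moved by more, 36 of them under median scaling, 10 each under loess and normexp and 9 under the mean over probes. Of the 36 genes 35 kept their sign, and Nup54 crossed 0 after loess (0.0013). The count of genes at least 2-fold lower was 1 in place of 0 under median scaling, which put Tmpo at -1.04, since that scaling lowers all differences. The count at least 1.5-fold lower ranged from 5 to 9, the median from -0.44 (median scaling) to -0.27 (loess), and the count below 0, an alternative added after the data were seen, was 28 or 29. The median of all named genes lay between -0.084 and 0.055 under these alternatives. No paired analysis was possible because each genotype had 1 array. The number of arrays limits the precision.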

Other observations

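Genes of mRNA export, the route by which spliced transcripts reach the pore, differed little in size and mostly lay below 0. Of 15 measured, 12 were below 0 by their chosen probes, where 50.5% of all named genes were. None reached 1.5-fold in either direction by its chosen probe, where 12.7% of all named genes were that much lower and 17.3% higher. The median was -0.16. Eny2 had -0.16 by its chosen probe but 0.62 by its other probe. Ddx39b, the RNA helicase of the export complex, had a signal of 13649 in KO against 20023 in WT (log2 difference -0.57, with its other probe at -0.56). Alyref, the adaptor that loads the export receptor, had 18326 in KO against 23031 in WT (-0.34), and Nxt1, a subunit of that receptor, had 5110 in KO against 6354 in WT (-0.33).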
